A study of Mus musculus with 48 samples.

Results

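The FOS and JUN family genes were followed through 4 signalling states of P19 cells by their chromatin accessibility. The 10 genes are *Fos*, *Fosb*, *Fosl1*, *Fosl2*, *Jun*, *Junb*, *Jund*, *Atf3*, *Batf* and *Batf3*. Every accessible region within 50 kb of a RefSeq transcription start site of these genes was taken, whatever its level, which gave 139 regions of the 287329 found in all. Each gene has 1 RefSeq start site. The windows of *Atf3* and *Batf3* overlap and hold 3 regions in common, so these regions are not independent between the genes. The region closest to the limit on the inside lay 49.6 kb from *Fos*, and the closest on the outside lay 50.4 kb from *Jun*.

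P19 is a mouse embryonal carcinoma line, grown here with 10% serum, which secretes its own NODAL and so carries continuous NODAL/Activin signalling when untreated. ATAC-seq, which cuts open chromatin with the Tn5 transposase, was performed on cells given 20 ng/ml Activin for 1 h (acute signalling) or 8 h (prolonged signalling), on untreated cells (chronic signalling) and on cells given 10 µM SB-431542, an inhibitor of the NODAL/Activin type I receptors. The treated and untreated cells are 1 cell line, and all 4 states share the serum in the medium. By the study's methods, the Activin and SB-431542 cells were first held in the inhibitor overnight and washed. They then received fresh serum-containing medium with Activin, or again with SB-431542 for 1 h, so that SB-431542 matches the 1 h Activin cells in time since fresh serum and not those at 8 h. No inhibitor or wash is described for the untreated cells. The length of signalling, the time since fresh serum and the inhibitor treatment therefore cannot be told apart at 8 h and in untreated cells. Each state had 2 biological replicates, listed as 12 libraries, although the study's methods describe 1 library per state and replicate sent for sequencing. The deposited peaks are 1 merged list per state. There is therefore no spread between replicates, no test between states and no SD at any value below, and differences are described beside the same measure over all regions.

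FOS and JUN proteins are bZIP transcription factors that pair through a leucine zipper to form AP-1. JUN proteins can pair with each other, whereas FOS proteins need a JUN partner, and the dimers bind the letters TGACTCA. Several of the genes are classical immediate early genes, switched on within minutes by serum, growth factors and stress through MAP kinases, the serum response factor SRF and existing AP-1. ATF3 and the BATF proteins are smaller relatives that pair with JUN proteins and often act as repressors or as partners of IRF factors.

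The sequences on which the description turns are given first, as the central 300 bases of a region on the forward strand of GRCm38. The first pair was taken from the regions over the start sites of *Fos* (chr12:85473572-85473871) and *Fosb* (chr7:19310204-19310503). These bases lie upstream of the start sites themselves, which are at chr12:85473890 and chr7:19310045, and the lines are named after the regions. The next pair came from the regions that lost most rank near *Jun* (chr4:95035438-95035737) and *Junb* (chr8:84985647-84985946). The last 3 came from the regions that gained near *Atf3* (chr1:191189968-191190267, chr1:191205197-191205496 and chr1:191143733-191144032). Capitals mark the CArG box bound by SRF, TGACTCA for AP-1 (TGAGTCA when it lies on the reverse strand) and TGTNNATT, which resembles the FOXH1 motif.
Fos start site: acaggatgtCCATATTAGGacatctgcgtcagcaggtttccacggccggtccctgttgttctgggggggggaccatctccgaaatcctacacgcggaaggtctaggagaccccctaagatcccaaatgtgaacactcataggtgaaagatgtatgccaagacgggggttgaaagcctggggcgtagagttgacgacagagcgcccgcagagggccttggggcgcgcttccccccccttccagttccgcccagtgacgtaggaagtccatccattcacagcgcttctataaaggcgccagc
Fosb start site: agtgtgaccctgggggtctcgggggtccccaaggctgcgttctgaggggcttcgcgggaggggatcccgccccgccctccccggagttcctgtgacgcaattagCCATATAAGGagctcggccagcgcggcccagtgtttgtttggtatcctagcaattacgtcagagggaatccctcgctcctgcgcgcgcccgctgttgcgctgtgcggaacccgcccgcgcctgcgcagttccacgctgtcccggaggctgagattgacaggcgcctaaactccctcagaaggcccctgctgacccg
Jun 16.3 kb downstream: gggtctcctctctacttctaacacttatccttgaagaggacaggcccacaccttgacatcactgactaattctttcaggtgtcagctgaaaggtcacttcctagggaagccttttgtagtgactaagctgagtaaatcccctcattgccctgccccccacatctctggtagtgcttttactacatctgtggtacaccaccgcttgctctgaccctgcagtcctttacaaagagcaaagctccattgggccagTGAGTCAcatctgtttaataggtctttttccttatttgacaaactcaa
Junb 6.48 kb upstream: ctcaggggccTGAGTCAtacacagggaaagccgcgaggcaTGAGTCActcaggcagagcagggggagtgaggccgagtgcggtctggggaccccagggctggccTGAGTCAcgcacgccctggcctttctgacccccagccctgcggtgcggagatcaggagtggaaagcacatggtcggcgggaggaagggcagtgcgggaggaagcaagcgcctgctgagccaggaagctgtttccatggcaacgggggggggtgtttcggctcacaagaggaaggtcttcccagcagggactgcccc
Atf3 6.36 kb upstream: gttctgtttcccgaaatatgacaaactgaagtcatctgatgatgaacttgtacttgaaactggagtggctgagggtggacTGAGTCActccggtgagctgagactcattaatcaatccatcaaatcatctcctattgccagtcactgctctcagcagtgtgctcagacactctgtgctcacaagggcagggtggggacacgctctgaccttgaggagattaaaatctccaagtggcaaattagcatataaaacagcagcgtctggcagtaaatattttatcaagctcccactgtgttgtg
Atf3 21.2 kb upstream: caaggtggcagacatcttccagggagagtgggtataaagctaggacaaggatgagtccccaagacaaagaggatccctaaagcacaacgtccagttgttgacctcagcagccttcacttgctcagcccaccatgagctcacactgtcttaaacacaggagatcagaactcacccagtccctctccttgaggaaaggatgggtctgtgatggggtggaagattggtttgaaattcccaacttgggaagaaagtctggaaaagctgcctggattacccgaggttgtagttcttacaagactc
Atf3 39.3 kb downstream: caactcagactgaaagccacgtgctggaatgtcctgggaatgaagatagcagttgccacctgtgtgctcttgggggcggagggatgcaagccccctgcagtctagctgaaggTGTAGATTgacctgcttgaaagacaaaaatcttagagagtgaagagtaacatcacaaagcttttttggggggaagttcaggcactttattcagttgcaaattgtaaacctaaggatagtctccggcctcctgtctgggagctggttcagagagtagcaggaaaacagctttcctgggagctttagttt

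SB-431542 gave 234758 peaks, 1 h Activin 233336, 8 h Activin 209212 and the untreated state 220004. Peaks that overlapped by at least 1 bp were merged into regions, of which 162505 had a peak in every list and are called shared. The lowest local background, which follows depth, was 92.6% of that in SB-431542 at 1 h, 79.0% at 8 h and 84.8% in untreated cells; the part of depth in the losses below was not tested. Start sites of 8 of 9 embryonal carcinoma markers lay in shared regions and that of *Dppa4* in none, whereas 7 of 9 markers of other cell types had no peak at their start sites. The exceptions were *Myod1* and the leukocyte gene *Ptprc*.

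Fold enrichment is the mean pileup over a peak divided by its local background, and each shared region was given a percentile for its highest fold enrichment among all shared regions of the same list. A region is called higher or lower when its percentile moved by more than 10 points against SB-431542. It is called gained or lost when it had a peak in only 1 list of the pair. These lists come from bulk chromatin, so fewer cells with an open site and a less open site in each cell cannot be told apart.

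Of the 139 regions, 92 (66.2%) were shared, against 56.6% of all regions. A peak in SB-431542 alone was found in 10 (7.19%), against 4.91% of all regions. The merged regions held 123 peaks in SB-431542, 115 at 1 h, 107 at 8 h and 112 in untreated cells. The shared regions of the family had higher medians of fold enrichment and width than all shared regions. Their median fold enrichment was 3.43 in SB-431542, 3.26 at 1 h, 3.26 at 8 h and 3.33 in untreated cells, while the median over all shared regions lay between 2.49 and 2.67. Their median width was 1064 bp in SB-431542, 1017 bp at 1 h, 952 bp at 8 h and 1112 bp in untreated cells, against 685 to 752 bp for all shared regions.

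The shares of higher regions in the family lay under those of all regions in each state, with no test of the difference. The same was seen within 50 kb of serum immediate early, AP-1 partner, kinase and SRF factor, and AP-1 target genes. At 8 h Activin 10.2%, 7.69%, 9.52% and 9.01% of their shared regions were higher, in this order. Markers of other cell types were also under the background in each state, with 16.1% at 8 h. Near NODAL target genes and embryonal carcinoma markers the share was 20.5% and 18.8% at 8 h, and 17.0% and 3.96% at 1 h. The low shares were therefore not particular to AP-1 or immediate early genes. At 1 h Activin 7 of 92 shared regions were higher (7.61%) and 8 were lower (8.70%), against backgrounds of 11.3% and 12.1%. At 8 h Activin 5 were higher (5.43%) and 12 lower (13.0%), against 18.7% and 18.5%. The untreated list had 7 higher (7.61%) and 13 lower (14.1%), against 19.9% and 18.8%. By this measure lower regions outnumbered higher ones at 8 h and in untreated cells, and both shares lay under the background. On the percentile of estimated pileup the order turned, with 7.61% higher and 6.52% lower at 8 h, and 8.70% higher and 7.61% lower in untreated cells. Among the 35 shared regions nearest a member's start site 20.0% were lower in each of these states, near the background of 18.5% and 18.8%. These shares count regions of 10 genes and not independent samples, and in 62 of the 139 regions the nearest start site of any gene was a member's.

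Presence of peaks gave a like picture. At 1 h Activin 8 of 131 regions were gained (6.11%) and 17 lost (13.0%), against 10.6% and 11.0% of all regions. At 8 h 4 of 127 were gained (3.15%) and 20 lost (15.7%), against 9.20% and 19.4%. In untreated cells 10 of 133 were gained (7.52%) and 23 lost (17.3%), against 11.7% and 17.1%. Losses exceeded gains in every state, also where the lists were cut to equal length, and the share lost was near the background. The members' median percentile shift was 1.31 points at 1 h, -2.57 at 8 h and -1.61 in untreated cells. Gained shares were also under the background near serum immediate early, AP-1 partner, kinase and SRF factor, and AP-1 target genes. At 8 h they were 7.76%, 3.60%, 7.56% and 6.88% in this order, and 13.3% near NODAL target genes. Markers of other cell types had 2.33% at 8 h and embryonal carcinoma markers 9.09%.

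**Figure D1:**
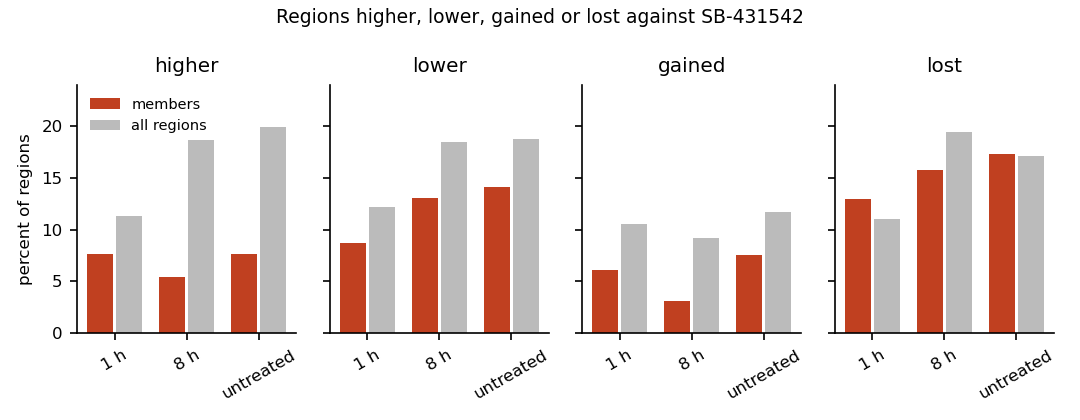
Percent of the family's regions (red) and of all regions (grey) that were higher, lower, gained or lost against SB-431542, for each of the 3 signalling states. The red bars for higher and gained regions are below the grey ones in every state, and at 8 h they reach 5.43% and 3.15%.

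At the start sites 8 of the 10 genes were open in every state. Regions over the start sites of *Fos*, *Fosb*, *Fosl1*, *Fosl2*, *Jun*, *Junb*, *Atf3* and *Batf3* had a peak in all 4 lists, as did 70.5% of the 21000 coding genes. *Batf*, a gene of lymphocytes, had none, and its nearest region lay 6.37 kb upstream with a peak of 1.69-fold enrichment in SB-431542 alone. The start site of *Jund* lay in a gap between 2 regions. One began 518 bp downstream, with fold enrichments of 3.42 in SB-431542, 3.37 at 1 h, 3.08 at 8 h and 3.09 in untreated cells. The other lay 954 bp upstream, with 1.77, 1.82, no peak and 1.86 in the same order.

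The *Fos* start site had fold enrichments of 3.28 in SB-431542, 3.16 at 1 h, 3.06 at 8 h and 2.98 in untreated cells. *Fosb*, a neuronal and serum-responsive relative of *Fos*, had 3.28, 3.48, 2.91 and 3.00 in the same order. *Fosl2*, encoding FRA2, had 3.80, 3.66, 3.37 and 3.38. All 3 were lowest at 8 h or in untreated cells, yet none moved by more than 10 percentile points. The widest moves were 8.91 points for *Fosb* at 1 h and -6.84 points at 8 h. Scaled to the median over shared regions, the estimated pileup of *Fosl2* had log2 ratios to SB-431542 of -0.42 at 8 h and -0.68 in untreated cells. These were the lowest of the 8 start sites with a region, against -0.12 and -0.20 for *Fosl1*. The *Fosl2* peak was 2139 bp wide in SB-431542, 1500 bp at 8 h and 1130 bp in untreated cells.

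By percentile of fold enrichment *Fosl1*, encoding FRA1, was the one start site of the family called lower. Its fold enrichment was 3.33 in SB-431542, 2.89 at 1 h, 2.83 at 8 h and 2.78 in untreated cells. The percentile was 56.4 at 8 h and 55.3 in untreated cells, against 66.6 in SB-431542, a shift of -10.2 and -11.4 points. On the percentile of estimated pileup the shifts were -4.13 and -7.33 points, below the 10-point limit. Among all 13748 shared regions over coding start sites, 2.61% were higher and 1.81% lower at 1 h, 2.58% higher and 5.25% lower at 8 h, and 2.70% higher and 6.11% lower with no treatment.

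Among the JUN genes, *Jun* had start site fold enrichments of 2.88 in SB-431542, 2.89 at 1 h, 2.76 at 8 h and 2.67 in untreated cells. *Junb*, which is often a weaker activator than *Jun*, had 2.64, 2.61, 2.71 and 2.55. Both were steady. The estimated pileup over the *Jun* start site was 895 reads per bp in SB-431542, at percentile 99.5, over an estimated local background of 310 reads per bp, and the region spanned 4009 bp. *Junb* had the widest region of the family, at 6638 bp.

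*Atf3* was flat at its start site, with 2.64, 2.67, 2.62 and 2.59-fold enrichment in SB-431542, at 1 h, at 8 h and in untreated cells. *Batf3*, a factor needed for a class of dendritic cells, had the strongest start site at 4.22, 4.60, 3.75 and 3.74. Its percentile moved by 7.65 points at 1 h and by -5.22 points at 8 h. Thus 0 of 8 start sites were higher in any state, and 1 of 8 was lower at 8 h and in untreated cells. When only peaks with −log10 q of at least 5 were kept, *Fosb* and *Batf3* were higher at 1 h, by 13.8 and 12.2 points, and *Fosb* was lower at 8 h, with a shift of -10.6 points.

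**Figure D2:**
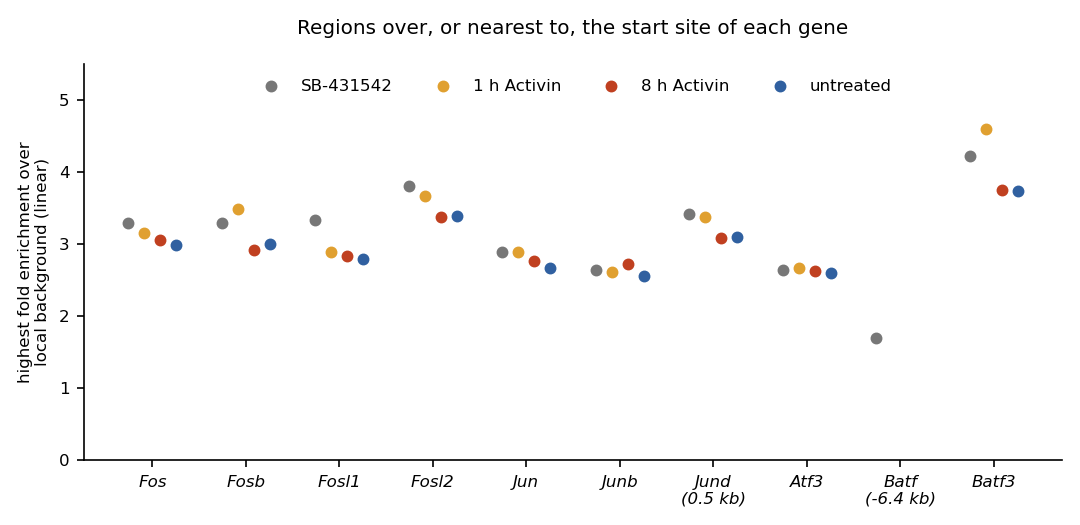
Highest fold enrichment over local background (linear axis) of the region over each start site in the 4 states, or of the nearest region for *Jund* and *Batf*, with its distance in kb under the name. Points of a gene lie close together, *Batf3* is highest at 4.60 in 1 h Activin, and *Batf* has a single point at 1.69.

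Regions away from the members' own start sites are described next, by gene. Around *Fos*, whose window holds no other gene's start site, 8 of 16 regions were shared and 0 of them were higher in any state by fold enrichment. Of all shared regions 11.3% were higher at 1 h, 18.7% at 8 h and 19.9% in untreated cells. The region 43.0 kb upstream rose past the limit by pileup percentile at 8 h alone. This percentile was 52.1 in SB-431542, 49.8 at 1 h, 67.1 at 8 h and 51.1 in untreated cells. Its fold enrichments were 2.54, 2.30, 2.59 and 2.43 in the same order. Its called width was 539 bp in SB-431542, 1243 bp at 8 h and 1376 bp in untreated cells, and the part of the width was not tested. The region 39.4 kb upstream had fold enrichments of 4.77 in SB-431542, 4.64 at 1 h, 4.90 at 8 h and 3.53 in untreated cells, so that only the untreated list stood apart (percentile 73.0, against 87.1 in SB-431542). The region 47.3 kb upstream was lower in all 3 signalling states, with 2.33, 2.33 and 2.39, against 2.85 in SB-431542. A region 9.28 kb downstream went the other way. It had no peak in SB-431542, and fold enrichments of 1.77 at 1 h, 1.87 at 8 h and 2.04 in untreated cells, with −log10 q of 9.38, 9.51 and 14.7.

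The strongest regions of the *Fos* window were steady. The one 17.8 kb upstream had 5.93, 5.89, 5.71 and 5.27-fold enrichment in SB-431542, at 1 h, at 8 h and in untreated cells, with percentiles between 93.0 and 96.2. The one 11.7 kb downstream had 4.47, 4.39, 4.53 and 5.19, its largest move being 8.60 points in untreated cells. Of the *Fos* regions 4 were lost at 8 h and 6 in untreated cells, and their fold enrichments in SB-431542 lay between 1.71 and 2.51. Of all regions with a peak in either list of the pair, 19.4% and 17.1% were lost.

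At *Fosb* the largest fall was at the neighbouring start site of *Ppm1n*, 29.9 kb downstream, with 2.91 in SB-431542, 2.82 at 1 h, 2.65 at 8 h and 2.26 in untreated cells (-21.5 points, or -7.30 points by pileup percentile). The intergenic region 22.6 kb upstream of *Fosb* was lower at 8 h and in untreated cells, with 3.94 in SB-431542, 3.15 at 1 h, 3.06 at 8 h and 2.87 in untreated cells. By pileup percentile it moved by -4.98 and -7.49 points, under the limit. The largest upward shift at *Fosb* was at a start site of *Rtn2*, 26.6 kb downstream, with 2.76, 2.95, 2.97 and 2.87 in the same order, 10.9 points at 1 h by fold enrichment and -0.53 points by pileup percentile. A small region 1.80 kb upstream of *Fosb* had 1.85, 1.57, no peak and 1.94. *Fosb* had 21 regions, more than any other member, where the median coding gene had 11. *Fosl1* had 10 other genes with start sites in its window, and its largest fall was in an exon of *Fibp*, 16.1 kb downstream, with 4.05, 3.37, 3.24 and 3.33; its pileup percentile moved by 0.98 points at 8 h, the other way. Its largest upward shift, 6.35 points in untreated cells, was 13.1 kb upstream, with 2.48, 2.43, 2.61 and 2.62. A region in an intron of *4930481A15Rik*, 40.2 kb upstream, had 2.28, no peak, 2.61 and 2.44.

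*Fosl2* had 5 regions, 1 of them over its start site. The one 2.50 kb upstream was shared, with 2.48 in SB-431542, 2.44 at 1 h, 2.40 at 8 h and 2.45 in untreated cells, and moved by less than 10 points. The one 33.1 kb downstream moved in both directions: 2.87 in SB-431542, 2.53 at 1 h, 3.37 at 8 h and 2.21 in untreated cells. Its percentile was 69.1 at 8 h and 33.2 in untreated cells, against 55.8 in SB-431542. The regions 16.7 and 27.8 kb downstream had a peak in SB-431542 alone, the second with 2.14-fold enrichment.

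*Jun* had the largest fall of the family. The intergenic region 16.3 kb downstream (chr4:95035292-95035883) had fold enrichments of 6.03 in SB-431542, 4.51 at 1 h, 3.87 at 8 h and 2.79 in untreated cells. The values were lower at each step in the order SB-431542, 1 h, 8 h and untreated, and the percentile was 87.8, 77.7 and 55.4 in the 3 signalling states, against 95.1 in SB-431542. Its estimated pileup was 187 reads per bp in SB-431542, 134 at 1 h, 94.1 at 8 h and 72.1 in untreated cells, and its pileup percentile fell by 32.2 points in untreated cells.

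The same order was seen in the 2 regions beside it. The region 25.8 kb downstream (chr4:95025858-95026376) had 4.03 in SB-431542, 3.59 at 1 h, 1.88 at 8 h and no peak in untreated cells, with −log10 q of 36.2, 26.4 and 2.86. Its −log10 q in SB-431542 was the highest among the family's regions found in some lists only, whereas by fold enrichment a region near *Atf3* reached 4.09. The region 14.1 kb downstream had 2.79 and 2.30 in SB-431542 and at 1 h, and no peak at 8 h or in untreated cells. Upstream of *Jun*, the region at 41.5 kb had 3.66, 3.72, 3.01 and 2.27, and the one at 29.2 kb had 2.13, 2.02, 1.67 and 1.70. The region just outside the window, 50.4 kb from *Jun*, had 4.90 and 4.61 in SB-431542 and at 1 h and no peak in the other lists.

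Not every *Jun* region followed. The region 6.74 kb downstream had 4.10 in SB-431542, 3.01 at 1 h, 3.94 at 8 h and 3.90 in untreated cells, low at 1 h alone. The region 43.2 kb downstream had 3.35, 3.86, 3.70 and 3.26, and was higher at 1 h by 13.3 points. The region 36.3 kb downstream was higher in untreated cells, with 3.42, against 2.95 in SB-431542. On the percentile of estimated pileup these 3 shifts were -3.22, 8.62 and 3.21 points, all under the limit. No other gene has a start site within 50 kb of *Jun*.

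**Figure D3:**
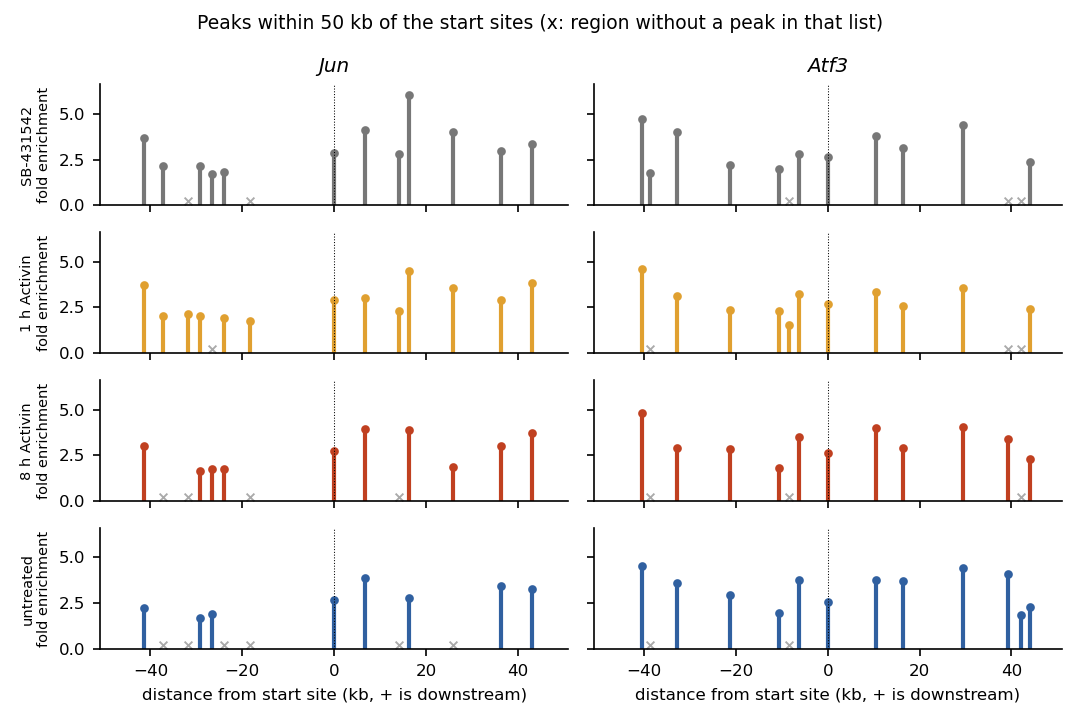
Fold enrichment of each region (vertical lines, linear axis) by distance from the start site of *Jun* and *Atf3*, with 1 row per state and a cross where the list had no peak. Downstream of *Jun* the tallest line shortens from row to row, with 2.79 in untreated cells, against 6.03 in SB-431542, and at *Atf3* a line at 39.3 kb downstream is present at 8 h and in untreated cells only.

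*Junb* was the one member whose regions, all 16, were shared. Its window holds start sites of 8 other genes, and several of the 16 regions lie over those. Its largest fall was in the intergenic region 6.48 kb upstream (chr8:84985229-84986365), with 3.23 in SB-431542, 2.82 at 1 h, 2.30 at 8 h and 2.16 in untreated cells. The percentile was 37.7 at 8 h and 30.4 in untreated cells, against 64.5 in SB-431542. Its pileup percentile, 91.4 in SB-431542, moved by -6.54 points at 8 h and -7.46 points in untreated cells, under the limit. Scaled to the median over shared regions, its estimated pileup had log2 ratios to SB-431542 of -0.54 at 8 h and -0.67 in untreated cells. The nearest start site to this region is that of *Hook2*. Upstream by 38.5 kb a region was higher, with 2.64, 2.65, 3.15 and 2.99.

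*Jund*, the JUN gene that is expressed most constantly in many cells, had 18 regions in a window with 5 other genes. Its largest rise by percentile of fold enrichment was in an intron of *Pgpep1* 44.1 kb upstream. This intron region had 2.04 in SB-431542, 2.21 at 1 h, 2.51 at 8 h and 2.46 in untreated cells. This region was higher in all 3 signalling states, by 14.1, 22.2 and 20.0 points. The largest fall at *Jund* was 14.7 kb upstream, with 3.84, 3.51, 2.97 and 2.92. In an exon of *Pgpep1*, 48.7 kb upstream, a region had 3.41, 3.64, 3.73 and 3.65, under the limit by fold enrichment. Its pileup percentile rose by 16.3, 13.8 and 15.6 points in the 3 signalling states.

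**Figure D4:**
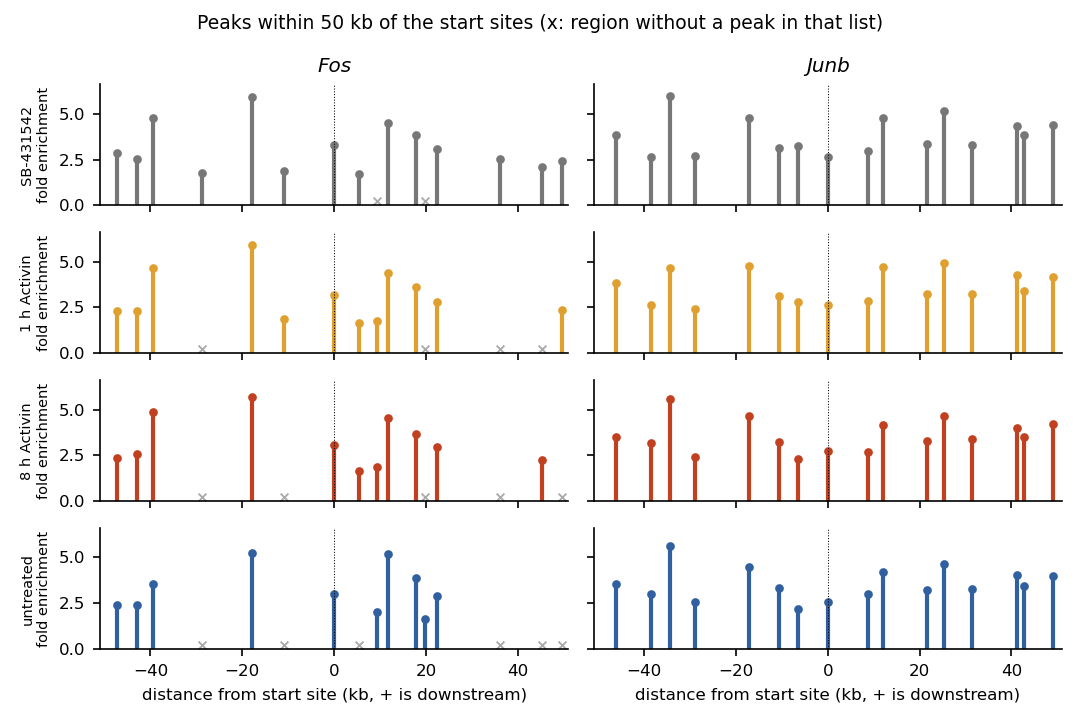
Fold enrichment of each region (vertical lines, linear axis) by distance from the start site of *Fos* and *Junb*, with 1 row per state and a cross where the list had no peak. *Junb* keeps its 16 regions in every row, and the *Fos* rows lose weak peaks and gain one 9.28 kb downstream in the 3 signalling states.

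*Atf3*, which is also a target of TGF-β family signalling in epithelial cells, had the largest rises in percentile of fold enrichment. The intergenic region 21.2 kb upstream had 2.22 in SB-431542, 2.38 at 1 h, 2.87 at 8 h and 2.96 in untreated cells, a rise in percentile of 12.7, 24.6 and 27.3 points. Its called width was 1580 bp in SB-431542, 425 bp at 1 h, 285 bp at 8 h and 279 bp in untreated cells, and since fold enrichment is a mean over the called peak, the part of the width in this rise was not tested. Its nearest start site is that of *D730003I15Rik*. The region 6.36 kb upstream had 2.78, 3.25, 3.53 and 3.76. Both were higher at each step in the order SB-431542, 1 h, 8 h and untreated, the opposite of the regions with the largest falls at *Jun* and *Junb*. For the first the width-weighted mean gave -0.19 points at 1 h. The pileup percentiles of both rose as well, by 19.8 points for the first and 13.6 points for the second in untreated cells, but stayed under the limit for both at 1 h and for the second at 8 h.

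A region 39.3 kb downstream of *Atf3*, which is also 45.3 kb downstream of *Batf3*, had no peak in SB-431542 or at 1 h. It had 3.38-fold enrichment at 8 h and 4.09 in untreated cells, with −log10 q of 18.1 and 31.0. Its nearest start site is that of *Fam71a*. Of the other *Atf3* regions, 3 moved past the limit in some states. The region 32.8 kb upstream had 3.99 in SB-431542, 3.12 at 1 h, 2.92 at 8 h and 3.63 in untreated cells, with shifts of -10.5 points at 1 h and -19.1 points at 8 h. The region 16.4 kb downstream had 3.15, 2.56, 2.90 and 3.70, with -10.4 points at 1 h and 13.4 points in untreated cells. By pileup percentile both falls at 1 h were under the limit, at -5.82 and -6.31 points, and the other shifts were -13.0 and 11.9 points. That 10.6 kb upstream had 2.00, 2.32, 1.79 and 2.00, with 21.6 points at 1 h and -13.4 points at 8 h. The pileup percentile of this last region moved by 11.2 points at 8 h, the other way from its fold enrichment. This pileup percentile also rose by 21.4 points at 1 h and by 27.0 points in untreated cells. In untreated cells the fold enrichment percentile moved by -0.48 points.

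The regions of *Batf3* included several that were lowest at 1 h. The region 5.69 kb upstream had 3.92 in SB-431542, 2.77 at 1 h, 3.07 at 8 h and 3.46 in untreated cells. Another 22.5 kb upstream, in an intron of *Nsl1*, had 4.60, 3.27, 4.23 and 3.76. In all, 3 of 10 shared *Batf3* regions were lower at 1 h, 1 at 8 h and 1 in untreated cells, and 0 were higher in any state. Of all shared regions 12.1%, 18.5% and 18.8% were lower and 11.3%, 18.7% and 19.9% higher in these states. The largest upward shift at *Batf3*, 7.89 points in untreated cells, was in an intron of *Tatdn3* 42.6 kb upstream, with 2.83, 2.50, 2.64 and 3.05. *Batf* had 3 shared regions of 9, the strongest in its own intron 17.9 kb downstream with 4.87, 4.43, 4.58 and 4.12, and its window lost 4 regions at 1 h, 5 at 8 h and 5 in untreated cells. Of all regions with a peak in either list of the pair, 11.0%, 19.4% and 17.1% were lost. The *Batf* region 23.3 kb upstream had 3.45, 3.55, 3.46 and 3.92, a shift of 10.6 points in untreated cells and of 2.79 points by pileup percentile. The one 42.3 kb downstream, nearest to *Flvcr2*, had 4.55, 3.32, 4.27 and 4.21, a shift of -13.2 points at 1 h and of -8.13 points by pileup percentile. The one 25.8 kb downstream had 2.24-fold enrichment in SB-431542 alone.

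**Figure D5:**
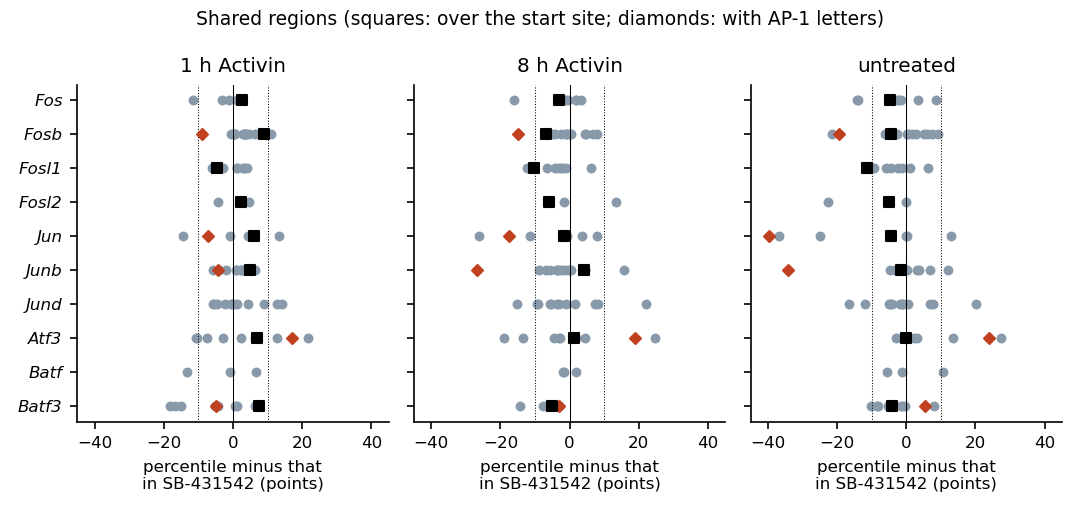
Percentile of fold enrichment minus that in SB-431542 for each shared region of each gene, in 1 panel per signalling state; dotted lines mark 10 points, squares are regions over the start site and diamonds regions with TGACTCA in their central 300 bases. At 8 h and in untreated cells diamonds lie far to the left for *Fosb*, *Jun* and *Junb* and to the right for *Atf3*, and the lowest point is the *Jun* region at -39.7 points in untreated cells. At 1 h the diamonds of *Fosb*, *Jun* and *Junb* lie inside the dotted lines, at -9.04, -7.34 and -4.32 points, and that of *Atf3* is at 16.9 points.

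The letters TGACTCA, counted on both strands in the central 300 bases, were in 13 of 139 member regions (9.35%), against 8.33% of all regions. They occurred in none of the RefSeq promoter windows (250 bases before to 50 after the start) of the 9 members matched there, *Fosl1* being unmatched, while 5.20% of 32851 promoters held them. Of the 13 regions, 12 had a peak in SB-431542, 9 at 1 h, 7 at 8 h and 6 in untreated cells. Only 5 were shared, and they include the regions with lower fold enrichment near *Jun* (16.3 kb downstream), *Junb* (6.48 kb upstream) and *Fosb* (22.6 kb upstream), of which the *Jun* region alone was also past the limit by pileup percentile. In untreated cells the scaled log2 pileup ratio to SB-431542 was -1.11 for the *Jun*, -0.67 for the *Junb* and -0.25 for the *Fosb* region. The region 6.36 kb upstream of *Atf3* held the letters and was higher, and that 29.7 kb upstream of *Batf3* moved by less than 10 points in each state.

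The *Junb* region held the letters 3 times, and 127 of all regions (0.0442%) had 3 or more. Over all shared regions with TGACTCA, 35.9% were lower at 8 h and 35.3% in untreated cells, whereas 17.3% and 17.7% of those without it were. At 1 h the shares were 11.1% and 12.2%. Of regions with the letters and a peak in either list of the pair, 11.9% were lost at 1 h, 41.8% at 8 h and 40.2% in untreated cells, and of those without the letters 10.9%, 17.3% and 15.1%. In the family 4 of 13 regions with the letters were lost at 1 h, 5 of 12 at 8 h and 6 of 12 in untreated cells, against 13 of 118, 15 of 115 and 17 of 121 without them.

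A CArG box was in 5 member regions (3.60%), against 1.71% of all. One was CCATATTAGG, which begins at position -309 from the *Fos* start site in its printed sequence, and another was CCATATAAGG, at position -272 from that of *Fosb*. Neither start site moved by more than 10 points in any state. The others lay 43.4 kb downstream of *Junb*, 11.6 kb upstream of *Junb* and 22.9 kb upstream of *Batf3*. The CRE letters TGACGTCA and the SMAD palindrome GTCTAGAC were in 0 member regions, against 0.255% and 0.282% of all. TGTNNATT was in 20 member regions (14.4%, against 17.5%), one of them the region gained downstream of *Atf3*. The TCF letters CTTTGAT were in 2 (1.44%, against 5.30%).

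Other genes of the same pathways were set beside the family by their start sites. Of 17 shared start sites of serum immediate early genes outside the family, 0 were higher in any state, while 4 were lower at 8 h and 4 in the untreated state, with a median shift of -5.65 points at 8 h. The 8 of the family had a median of -4.19 points at 8 h, and all coding start sites -0.77 points. The largest fall was that of *Ccn2*, a secreted matrix protein, with 3.85 in SB-431542, 3.66 at 1 h, 2.76 at 8 h and 2.52 in untreated cells. *Myc* had the largest upward shift at 8 h in that list, 5.14 points, which is under the limit.

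The bZIP partner genes had 0 of 9 start sites higher in any state, and 1 lower, in untreated cells. The kinases and SRF factors had 0 of 12 higher or lower in any state, with *Srf* showing the largest drop at 8 h, -7.11 points. Of 11 shared start sites of AP-1 target genes, 2 were lower at 1 h, 3 at 8 h and 2 in untreated cells. *Mmp9*, a matrix metalloproteinase, had 2.68 in SB-431542, 2.17 at 1 h, 2.26 at 8 h and 2.19 in untreated cells. For scale, NODAL target genes, several of which were chosen by the study on these cells, had 2 of 10 start sites higher at 8 h, the larger being *T* with 2.37, against 1.96 in SB-431542.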

How the data were processed

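The series lists 48 ATAC-seq libraries, 12 for each of 4 states, whereas the study's methods describe a library picked per state and biological replicate for sequencing. The 12 are therefore not counted as independent samples. According to the study's methods and the submitters' processing notes, reads were trimmed with cutadapt 1.9.1, mapped to mm10 with BWA 0.6.2 and duplicate-marked with Picard, and broad peaks were called with MACS2 2.1.1.20160309 on the alignments merged per state. The authors' column of fold enrichment is a ratio of mean pileup to local background, and the deposited −log10 p and −log10 q columns give the strength of each call. No replicate values were analysed here.

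Lists were merged into regions at an overlap of at least 1 bp. Percentiles were taken over regions with a peak in all 4 lists. The local background and pileup were solved from the fold enrichment and −log10 p with a pseudocount of 1 read. Distances and annotation came from 45756 RefSeq transcripts of GRCm38.p6, whose primary assembly is mm10. Scripts in Python 3.11.15 with numpy 2.4.6 and scipy 1.17.1 were tested on simulated data. For each member the text gives the region over or nearest the start site, its most raised and most lowered shared regions, and the strongest region found in some lists only. Other regions were named after their values were seen. From each other list only the start sites with the largest rise or fall at 8 h are named. The members, gene lists and motifs were chosen with earlier results of these data known. Alternatives were a −log10 q of at least 5, lists of equal length, merging within 200 bp, windows of 10 and 100 kb, regions nearest to a member, an overlap of 50% of a peak, and 3 other measures of a peak.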

Additional observations from a re-analysis of the deposited data

Results flagged for a closer look

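Regions that moved by more than 10 percentile points one way in one state and the other way in another, each against SB-431542, are given here. With 1 merged list per state these differences were not tested. The *Fosl2* region 33.1 kb downstream moved by 13.3 points at 8 h Activin and by -22.7 points in untreated cells. The *Atf3* region 16.4 kb downstream moved by -10.4 points at 1 h Activin and by 13.4 points in untreated cells. On the percentile of estimated pileup it moved by -6.31 and 11.9 points, so its fall at 1 h was under the limit. The *Atf3* region 10.6 kb upstream moved by 21.6 points at 1 h and by -13.4 points at 8 h, and on the percentile of estimated pileup it moved by 21.4 and 11.2 points, so its fall at 8 h was seen for fold enrichment and not for pileup.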

How the results depend on the processing

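No paired analysis was possible because each state has 1 merged list, and no replicate could be left out. Of 96 recomputed shares, 84 stayed within the 95% Wilson interval of the value given, an interval that covers counting error only. On the percentile of estimated pileup the shared regions higher and lower at 1 h came to 3.26% and 4.35%, and those lower at 8 h and in untreated cells to 6.52% and 7.61%. On the percentile of −log10 q those lower at 8 h came to 7.61%. With peaks of −log10 q of at least 5 the gained share was 2.70% at 1 h and 3.57% in untreated cells, and the higher share in untreated cells was 15.7%. In the 10 kb window 6.67% were lost at 1 h and 3.45% gained in untreated cells. Among regions nearest to a member's start site 23.2% were lost at 8 h and 27.1% in untreated cells. Start site shifts kept their side of the 10-point limit in 128 of 135 recomputations; the exceptions were *Fosl1*, *Fosb* and *Batf3*, and the cause was not tested. Of 50 shifts past 10 points away from the start sites, an alternative chosen after seeing the data, 49 kept direction and call with the width-weighted mean, 37 with −log10 q and 27 with pileup. Reversed values were -0.53 points at 1 h for the *Rtn2* start site near *Fosb*, 0.98 points at 8 h for the *Fibp* exon and 11.2 points at 8 h for the *Atf3* region 10.6 kb upstream, all with pileup, and -0.19 points at 1 h for the *Atf3* region 21.2 kb upstream with the width-weighted mean. Depth differed between the lists, so a weak region without a peak in one of them is not shown to be closed there.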
